A study of Homo sapiens with 4 samples.

Results

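The 47 genes described here act in G2 and mitosis, and were given as a list of gene symbols. They were matched by the symbol of the array's annotation, on probes with a detection p-value under 0.01 on at least 1 array. All 47 were found among the 10457 genes that had such a probe, and all 47 were detected on all 4 arrays, so none was lost to the filter on dim signals. The RNA came from H9, an established human embryonic stem cell line, sampled on day 2, per the titles. It was kept on plates coated with matrigel, a basement membrane extract, in E8 (a defined culture medium) that was renewed daily. Cultures were at high density (over 90% confluence) or low density (under 70% confluence), in plain E8 (control) or in E8 with 20 mM of extra sodium bicarbonate, a buffer that limits acidification of the medium. Every combination of density and medium has 1 Illumina array, 4 in all. With 1 array per group there is no spread between samples, so no test was run and no p-value is given. The label "high density" also covers whatever crowding does to cell number and medium. In these bulk samples a change in the share of dividing cells and a change in RNA per dividing cell cannot be told apart.

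Between 14128 and 15213 of 47293 probes were detected per array, and the median intensity before normalization was lowest, at 117.4, on the array of high density with bicarbonate and 153.5 to 166.6 on the others. Of the pluripotency markers, 10 were detected on each array. Their summed level, on the linear scale, was 41291 (control) and 45681 (bicarbonate) at high density and 46342 and 52644 at low density. At high density 3 of the 10 were at least 1.5-fold lower in each medium, against 11.9% (control) and 12% (bicarbonate) of all genes. In each medium 0 were that much higher, against 12% and 11.5%. In control medium the 3 lower ones were DNMT3B (log2 difference -0.84), L1TD1 (-0.64) and CRIPTO (-0.64). POU5F1 (-0.35) and NANOG (-0.40) were also below 0, while LIN28A (0.37), DPPA4 (0.23), SALL4 (0.21), TERF1 (0.14) and SOX2 (0.09) were above 0. With bicarbonate the 3 lower ones were CRIPTO (-1.22), L1TD1 (-0.79) and NANOG (-0.62), and DNMT3B was at -0.30. The median of the 10 was -0.13 in control medium and -0.11 with bicarbonate. None of 8 mesoderm markers was detected, and 5 of 10 fibroblast markers were detected on each array. The summed level of the fibroblast list was 11986 and 8959 on the high-density arrays (control and bicarbonate) and 7888 and 7152 on the low-density arrays. Its brightest genes were THY1 (log2 12.84, 12.52, 12.31 and 12.12 in that order) and TAGLN (11.78, 10.50, 10.88 and 10.92). TAGLN had a density difference of 0.91 in control medium and -0.42 with bicarbonate. COL1A1, COL1A2, THY1 and PDGFRB were above 0 in both media. Endoderm markers were detected at low density alone (2 of 7 on each array), and trophoblast or amnion markers numbered 2 of 8 on each high-density array, and at low density 1 (control) and 0 (bicarbonate). The summed levels of the fibroblast and trophoblast lists were higher at high density, and those of the pluripotency and endoderm lists were lower. In such sums the brightest genes weigh most, and single pluripotency markers went both ways. The part of these markers in the results below was not tested.

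Progression through G2 into mitosis is driven by CDK1 bound to cyclin A or cyclin B, with the Polo and Aurora kinases acting on centrosomes, kinetochores and the spindle. The genes for these proteins are transcribed late in the cell cycle. In human cells this timing depends on the CHR, a short promoter element bound by the MuvB core, which activates transcription together with B-MYB and FOXM1 and represses it, as the DREAM complex, when p53 and p21 stop the cycle. CCAAT boxes bound by NF-Y lie next to many CHR elements. Human embryonic stem cells divide rapidly, with a short G1 phase, so transcripts of mitosis are abundant in them.

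The promoters of the genes were searched because of this shared control. A promoter here means the 250 bases before and 50 bases after the start site in RefSeq (build GRCh38.p14), of which 51 entries matched 39 of the 47 genes. The letters TTTGAA or TTCGAA of the CHR were found, on either strand, in 34 of 51 entries (66.7%), against 16.4% of all 35116 promoters and 11.6% of the 12413 promoters of genes detected here. CCAAT was found on either strand in 38 of 51 entries (74.5%), against 34.6% of all promoters and 35.7% of those of detected genes. The E2F letters TTGGCGC or TTCCCGC were found in 11 entries (21.6%), against 9.23% of all promoters and 13.4% of those of detected genes. Counted by gene, that is 23.1% of the matched genes against 17.7% of detected genes. A CCAAT can share letters with an E2F string, as in 1 entry of ECT2. These are matches of letters and not mapped binding sites. Of the 46 CHR strings, 21 began within 50 bases before the start site, and 39 of the 76 CCAAT strings began more than 50 and at most 100 bases before it. The median density difference in control medium was 0.30 (log2) over the 31 genes with a CHR string and 0.36 over the 8 without one, and with bicarbonate it was 0.26 and 0.43.

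Of the promoters below, those of NEK2, INCENP, CENPA, NUF2 and KIF2C belong to genes past 1.5-fold in favour of high density in both media. That of PLK1 holds a CHR 29 bases and a CCAAT 73 bases before the start. That of ESPL1 belongs to the gene that stood lowest of all 47 at high density in control medium. They lie at chr1:211675572-211675871 (minus strand) for NEK2, chr11:62123761-62124060 (plus strand) for INCENP, chr2:26785806-26786105 (plus strand) for CENPA, chr1:163321704-163322003 (plus strand) for NUF2, chr1:44739587-44739886 (plus strand) for KIF2C, chr16:23678639-23678938 (plus strand) for PLK1 and chr12:53268049-53268348 (plus strand) for ESPL1. Capitals mark the CHR and CCAAT strings as read on either strand.
NEK2: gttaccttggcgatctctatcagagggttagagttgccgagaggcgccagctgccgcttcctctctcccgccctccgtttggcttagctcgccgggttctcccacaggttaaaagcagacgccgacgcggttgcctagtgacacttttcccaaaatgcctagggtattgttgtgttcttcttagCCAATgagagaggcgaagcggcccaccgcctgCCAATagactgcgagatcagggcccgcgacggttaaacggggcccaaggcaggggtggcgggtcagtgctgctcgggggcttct
INCENP: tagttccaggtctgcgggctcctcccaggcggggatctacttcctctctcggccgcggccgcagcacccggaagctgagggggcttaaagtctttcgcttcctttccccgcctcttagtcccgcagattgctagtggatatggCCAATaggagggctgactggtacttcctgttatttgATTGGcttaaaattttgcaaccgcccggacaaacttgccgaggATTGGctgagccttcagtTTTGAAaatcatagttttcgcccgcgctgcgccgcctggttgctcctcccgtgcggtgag
CENPA: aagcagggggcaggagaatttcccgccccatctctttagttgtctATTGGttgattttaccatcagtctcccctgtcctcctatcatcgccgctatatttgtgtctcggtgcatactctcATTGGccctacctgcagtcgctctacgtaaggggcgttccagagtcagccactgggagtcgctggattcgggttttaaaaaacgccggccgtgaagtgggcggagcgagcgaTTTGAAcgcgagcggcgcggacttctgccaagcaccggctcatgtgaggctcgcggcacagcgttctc
NUF2: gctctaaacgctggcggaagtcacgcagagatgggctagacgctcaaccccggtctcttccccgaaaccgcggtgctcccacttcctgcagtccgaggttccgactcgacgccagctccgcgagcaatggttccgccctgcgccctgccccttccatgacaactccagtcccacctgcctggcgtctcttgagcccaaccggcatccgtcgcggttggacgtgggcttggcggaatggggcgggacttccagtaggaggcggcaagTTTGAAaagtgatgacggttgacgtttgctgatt
KIF2C: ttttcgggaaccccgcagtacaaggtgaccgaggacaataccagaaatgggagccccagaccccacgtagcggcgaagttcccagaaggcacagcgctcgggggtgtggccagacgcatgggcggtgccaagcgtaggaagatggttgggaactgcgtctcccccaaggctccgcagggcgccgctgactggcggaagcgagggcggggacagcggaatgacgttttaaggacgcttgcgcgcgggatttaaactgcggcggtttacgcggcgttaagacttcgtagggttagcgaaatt
PLK1: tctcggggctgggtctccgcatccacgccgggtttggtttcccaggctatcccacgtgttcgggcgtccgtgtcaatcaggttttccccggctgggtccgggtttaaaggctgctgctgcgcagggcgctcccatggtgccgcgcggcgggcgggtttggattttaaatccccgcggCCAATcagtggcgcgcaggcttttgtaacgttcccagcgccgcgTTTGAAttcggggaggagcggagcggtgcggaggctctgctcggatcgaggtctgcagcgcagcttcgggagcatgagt
ESPL1: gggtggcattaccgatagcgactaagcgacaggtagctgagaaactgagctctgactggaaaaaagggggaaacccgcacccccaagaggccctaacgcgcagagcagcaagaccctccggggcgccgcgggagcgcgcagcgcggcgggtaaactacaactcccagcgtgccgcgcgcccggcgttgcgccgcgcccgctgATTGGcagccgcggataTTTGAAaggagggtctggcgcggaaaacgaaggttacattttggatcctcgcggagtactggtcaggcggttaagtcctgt
ESPL1, which was lower at high density, carries a CHR 31 bases and an inverted CCAAT 48 bases before its start, and PLK1, which was higher, also carries both. KIF2C and NEK2 hold no CHR string in this window, and KIF2C no CCAAT either.

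The first question was how the genes differed between crowded and sparse cultures in control medium. A difference is given as log2 of high over low density, between normalized log2 intensities of the brightest probe of a gene, and 1.5-fold (log2 0.58) is the size counted. Of the 47 genes 14 passed 1.5-fold with the higher level at high density, against 12% of all 8936 genes measured in this comparison. None was 1.5-fold lower, against 11.9% of all genes. The median difference of the 47 genes was 0.32, with quartiles of -0.01 and 0.76, and that of all genes was 0.01. The SD per probe, estimated from pairs of probes of the same gene, was 0.35 in this comparison (1737 genes). The gap between paired probes spreads wider than this SD. It covers the probes of 1 array pair and no variation between cultures.

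**Figure D1:**
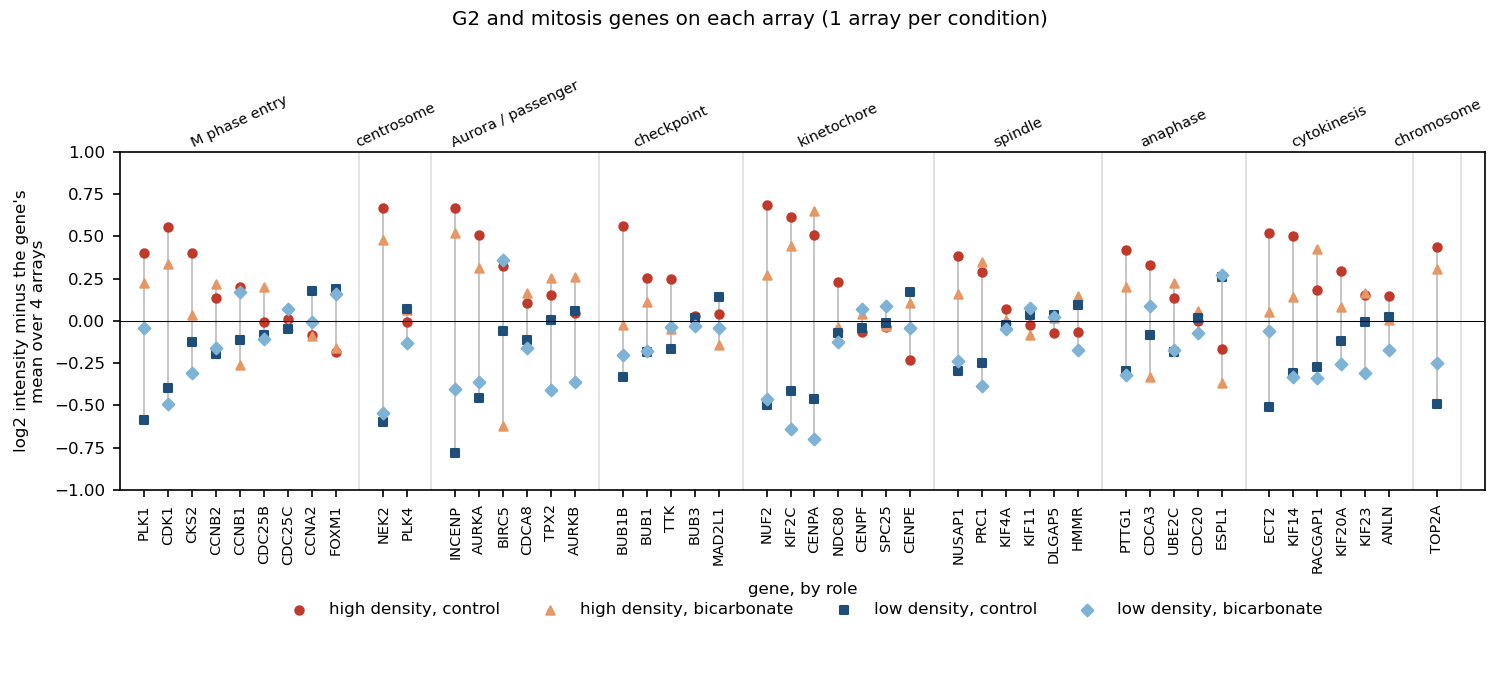
Normalized log2 intensity of each of the 47 genes minus the mean of its 4 arrays (vertical axis), with genes grouped by role along the horizontal axis and 1 point for each array. For 27 of the 47 genes (57.4%, against 29.1% of all genes) both high-density points (red circle, orange triangle) lie above both low-density points (blue). For 6 genes (12.8%, against 31.3% of all genes) both lie below.

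The same question was asked in medium with bicarbonate, on 2 arrays that the first comparison did not use. Here 11 of the 47 genes passed 1.5-fold with the higher level at high density, against 11.5% of all 8836 genes measured, and 2 were lower, against 12%. The median was 0.29, and that of all genes was -0.03. In both media 7 genes were at least 1.5-fold higher (14.9%, against 4.93% of 8554 genes detected on all arrays), namely CDK1, NEK2, AURKA, INCENP, CENPA, NUF2 and KIF2C. None was lower by that much in both, against 5.17%. Without regard to size, 29 of 47 genes (61.7%) were higher at high density in both media, against 33% of all genes, and 8 (17.0%) were lower in both, against 34.7%. Both high-density arrays lay above both low-density arrays for 27 of the 47 genes (57.4%), against 29.1% of all genes. Across the 47 genes the density differences of both media had a Pearson correlation of 0.62 and a Spearman correlation of 0.65, and across 8554 genes 0.58 and 0.54. These points share their arrays, so the correlations describe 4 arrays and no more.

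**Figure D2:**
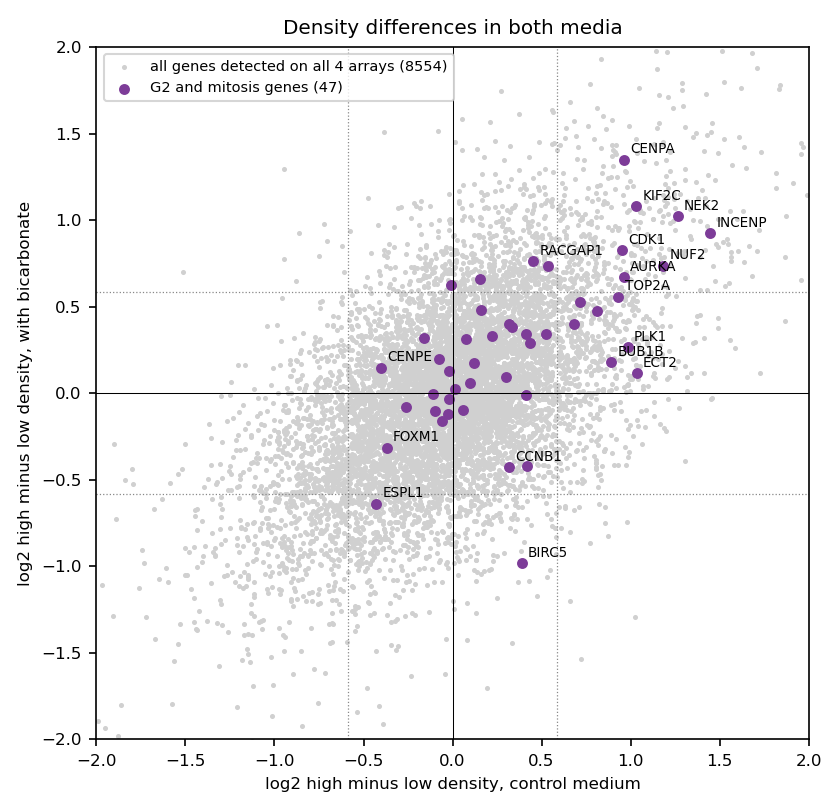
Density differences in control medium (horizontal, log2 high minus low density) and with bicarbonate (vertical), for the 47 genes (purple) and 8554 genes detected on all arrays (grey, 35 of which lie outside the axes). Dotted lines mark 1.5-fold. CENPA, KIF2C, NEK2, INCENP, CDK1, NUF2 and AURKA lie past it in both media, and BIRC5 lies at 0.39 and -0.98.

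Among the genes of entry into M phase, the kinases CDK1 and PLK1 differed more with density in control medium than the cyclins. Wherever 4 levels are listed, they are normalized log2 intensities, first for high density (control, then bicarbonate) and then for low density (control, then bicarbonate). CDK1, the kinase that drives entry into mitosis, stood at 10.94, 10.72, 9.99 and 9.90. It was thus higher on both high-density arrays, by 1.93-fold in control medium and 1.77-fold with bicarbonate, and its second probe gave log2 differences of 0.70 and 0.71. PLK1, the Polo kinase that acts on centrosomes, kinetochores and cytokinesis, stood at 9.69, 9.51, 8.71 and 9.25. It was 1.98-fold higher at high density in control medium and 1.20-fold higher with bicarbonate. CKS2, a small subunit bound to CDK1, stood at 12.78, 12.42, 12.25 and 12.07, a density difference of 0.53 in control medium, while its second probe gave 1.02.

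The cyclins were closer together. CCNB2 (cyclin B2) differed by 0.33 and 0.38 in the 2 media, CCNA2 (cyclin A2) by -0.26 and -0.08, and CCNB1 (cyclin B1) by 0.31 and -0.43. The CDK1-activating phosphatases CDC25B (0.07 and 0.31) and CDC25C (0.06 and -0.10) were also within 1.5-fold. FOXM1, the transcription factor that activates many genes of this list in G2, was among the few that stood lower at high density. Its levels were 9.98, 10.01, 10.35 and 10.32, both high-density arrays below both low-density ones, with differences of -0.37 and -0.32 on the brightest probe and -0.85 and -0.17 on the second.

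Of the centrosome kinases, NEK2 was among the genes with the largest density difference. NEK2, which cuts the link between duplicated centrosomes, stood at 11.03, 10.84, 9.76 and 9.82, or 2.40-fold and 2.03-fold higher at high density. Its second probe gave 0.91 and 1.08 on the log2 scale. PLK4, the kinase that starts centriole duplication, stood at 10.01, 10.09, 10.09 and 9.89, and the densities overlapped.

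The chromosomal passenger complex, in which INCENP holds Aurora B, survivin (BIRC5) and borealin (CDCA8), had members that went separate ways. INCENP stood at 8.68, 8.53, 7.23 and 7.61, the largest density difference of the 47 genes in control medium at 2.73-fold (log2 1.45), and a log2 difference of 0.92 with bicarbonate. INCENP had no second detected probe. It was the dimmest of the 47 genes on both low-density arrays, at 307.2 and 299.4 before normalization. Without background correction its difference in control medium was 0.94, below NEK2 (1.15) and ECT2 (0.95), so its first rank depends on that correction. AURKB stood at 11.43, 11.64, 11.44 and 11.02, with no density difference in control medium (-0.01) and 0.63 with bicarbonate. CDCA8 differed by 0.22 and 0.33.

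BIRC5, an inhibitor of apoptosis as well as a passenger protein, stood at 10.33, 9.38, 9.94 and 10.37. The high-density culture with bicarbonate was the low one, so its density difference was 0.39 in control medium and -0.98 with bicarbonate. The second probe of BIRC5 (7.60, 6.75, 7.18 and 7.25) was also lowest on that array. AURKA, the centrosomal Aurora kinase, stood at 11.55, 11.36, 10.59 and 10.69, higher on both high-density arrays by 1.95-fold and 1.59-fold. Its activator TPX2 stood at 10.74, 10.84, 10.59 and 10.18, and its density difference was 0.15 in control medium and 0.66 with bicarbonate.

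In the spindle assembly checkpoint, which holds anaphase until every chromosome is attached, 1 of 5 genes was at least 1.5-fold higher at high density in control medium and 0 of 5 with bicarbonate, against 12% and 11.5% of all genes. BUB1B (BubR1) stood at 9.82, 9.23, 8.93 and 9.05, or 1.85-fold higher in control medium and 1.13-fold with bicarbonate. BUB1, the checkpoint kinase of kinetochores, stood at 11.16, 11.02, 10.72 and 10.73, with differences of 0.44 and 0.29. TTK (Mps1 kinase) differed by 0.41 and -0.01. BUB3 (0.01 and 0.02) and MAD2L1 (-0.10 and -0.10) were nearly level on their brightest probes, but a second probe of MAD2L1 gave 0.60 and -0.63. The other detected probes of BUB3 gave -0.24 and -0.40 on the brighter and 0.22 and 0.11 on the dimmer.

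Kinetochore genes held 3 of the 7 that were higher in both media. CENPA, the histone H3 variant that marks centromeres, stood at 9.52, 9.67, 8.56 and 8.32. It was 1.95-fold higher at high density in control medium and 2.55-fold with bicarbonate, and its second probe gave 1.04 and 1.57. KIF2C, a kinesin that removes tubulin from wrongly attached microtubules, stood at 10.61, 10.44, 9.58 and 9.36, or 2.05-fold and 2.12-fold higher.

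The 4-part NDC80 complex, which binds microtubules to kinetochores, did not shift as a unit. NUF2 stood at 9.31, 8.89, 8.13 and 8.16, or 2.27-fold and 1.67-fold higher at high density. Its partner NDC80 differed by 0.30 and 0.09 and SPC25 by -0.02 and -0.12. CENPF (-0.02 and -0.03), a kinetochore protein of G2, was level. The kinetochore motor CENPE stood at 9.44, 9.78, 9.85 and 9.63, lower by 0.40 (log2) in the high-density control, with overlapping densities.

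Spindle genes were mostly level. NUSAP1, which bundles microtubules near chromosomes, stood at 12.13, 11.90, 11.45 and 11.50, with differences of 0.68 and 0.40. PRC1, which cross-links the central spindle, stood at 11.17, 11.23, 10.63 and 10.49, with differences of 0.54 and 0.73. For both, the high-density arrays lay above the low-density ones. The motors KIF11 (-0.06 and -0.16) and KIF4A (0.10 and 0.06) differed little. HMMR and DLGAP5, which bind spindle microtubules, depended on the probe. The brightest probe of HMMR gave -0.16 and 0.32 and the second 0.66 and -0.10, and those of DLGAP5 gave -0.11 and -0.01 against 0.60 and 0.55.

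Of the genes of anaphase, PTTG1 (securin, which restrains separase) and ESPL1 (separase, which cuts cohesin) stood on opposite sides. PTTG1 stood at 13.36, 13.14, 12.64 and 12.62, with density differences of 0.71 and 0.52. ESPL1 stood at 8.49, 8.30, 8.92 and 8.94, with differences of -0.43 and -0.64, so that both high-density arrays were the lower ones. CDC20 (-0.02 and 0.13), which activates the anaphase-promoting complex, and its ubiquitin-conjugating enzyme UBE2C (0.32 and 0.40) stayed within 1.5-fold. CDCA3, a trigger of mitotic entry, stood at 9.52, 8.86, 9.10 and 9.28, or 0.42 and -0.42.

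All 6 genes of the central spindle and cytokinesis were higher at high density in both media, against 33% of all genes. By 1.5-fold or more, 2 of the 6 were higher in control medium and 1 with bicarbonate, against 12% and 11.5%, and the 1 of 6 is near that background. ECT2, the exchange factor that activates RhoA at the cleavage furrow, stood at 11.06, 10.59, 10.03 and 10.48, or 2.05-fold higher in control medium but 1.08-fold with bicarbonate. RACGAP1, the centralspindlin subunit that binds ECT2, stood at 9.67, 9.91, 9.21 and 9.15, with differences of 0.45 and 0.76. KIF14, a kinesin of the midbody, stood at 9.18, 8.82, 8.37 and 8.35, with differences of 0.81 and 0.47.

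The remaining cytokinesis genes differed less, KIF20A by 0.41 and 0.34, KIF23 by 0.16 and 0.48, and ANLN (anillin) by 0.12 and 0.18. TOP2A, the topoisomerase that untangles sister chromatids, stood at 12.16, 12.03, 11.23 and 11.48. It was 1.91-fold higher at high density in control medium and 1.47-fold with bicarbonate.

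The second question was what added bicarbonate did to these genes. At high density 0 of the 47 genes were at least 1.5-fold higher with bicarbonate, against 4.49% of 9188 genes, and 3 (6.38%) were lower, against 4.47%. That share is near the background. The 3 were BIRC5 at 1.93-fold lower (log2 -0.95), CDCA3 at 1.58-fold lower (-0.66) and BUB1B, just past the limit (-0.58), whose levels are given above. The median was -0.13, against 0.02 for all genes. For the 7 genes higher at high density in both media the bicarbonate difference was -0.42 for NUF2, -0.22 for CDK1, -0.19 for NEK2, -0.19 for AURKA, -0.17 for KIF2C, -0.15 for INCENP and 0.15 for CENPA. The high-density control array also entered the density comparison, so these values and those above are not independent.

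At low density 0 of 47 genes were at least 1.5-fold higher with bicarbonate, against 2.24% of 8973 genes, and 0 were lower, against 1.48%. The median was -0.03, and that of all genes was 0.03. PLK1 (0.54), ECT2 (0.45) and BIRC5 (0.42) stood highest and AURKB (-0.42), TPX2 (-0.41) and KIF23 (-0.30) lowest.

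**Figure D3:**
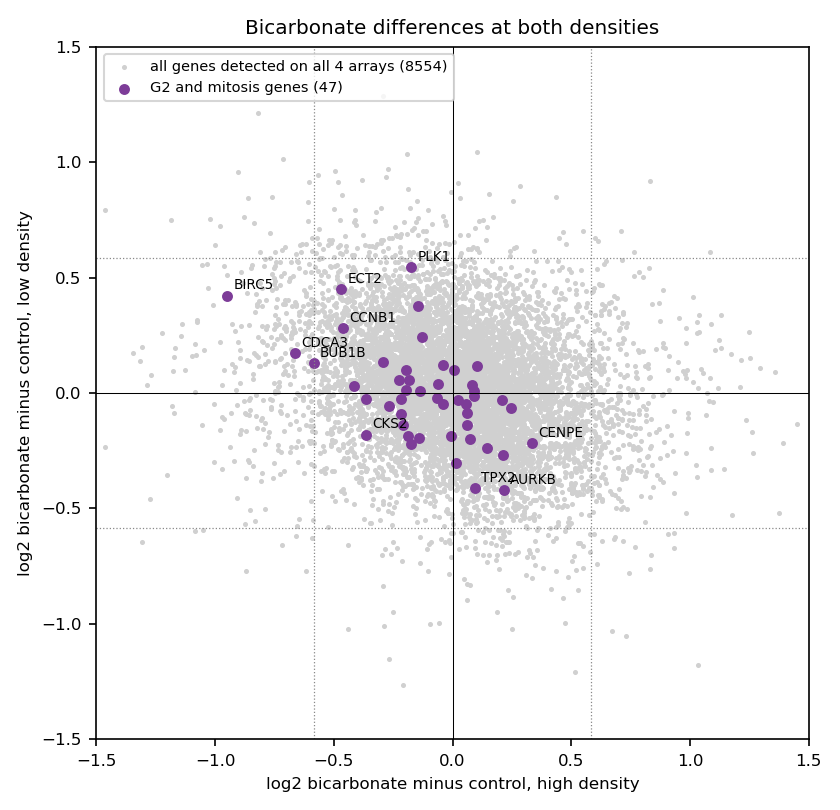
Bicarbonate differences at high density (horizontal, log2 bicarbonate minus control) and at low density (vertical) for the 47 genes (purple) and 8554 genes detected on all arrays (grey, 10 outside the axes), with dotted lines at 1.5-fold. BIRC5, CDCA3 and BUB1B lie at the left, at -0.95, -0.66 and -0.58, and none of the 47 genes lies past 1.5-fold on the vertical axis.

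The bicarbonate difference at high density minus that at low density was at least 1.5-fold above 0 for 1 gene, AURKB, against 10.4% of 8554 genes. It was as far below 0 for 6 genes (12.8%), against 10.7%, which is near the background. Those were BIRC5 (-1.37), ECT2 (-0.92), CDCA3 (-0.84), CCNB1 (-0.74), PLK1 (-0.72) and BUB1B (-0.71). Across the 47 genes the bicarbonate differences at both densities, from separate pairs of arrays, had a Pearson correlation of -0.56 and a Spearman correlation of -0.51, and across 8554 genes -0.24 and -0.25. Of the 47 genes 23 stood highest in the high-density control (48.9%, against 25.8% of all genes), and 21 stood lowest at low density with bicarbonate (44.7%, against 24.3%).

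Where a gene had a second probe detected on all arrays, it was used as a check on the same RNA. For the 16 such genes the probes' density differences had a Pearson correlation of 0.69 in control medium and 0.85 with bicarbonate (Spearman 0.65 and 0.88), and the sign agreed for 12 of 16 in each. For the bicarbonate difference at high density the Pearson correlation was 0.61 and the Spearman correlation 0.31, with the same sign for 12 of 16. At low density they were -0.09 and -0.05, with the same sign for 8 of 16, so those values did not recur on the second probes. The median density difference of these 16 genes in control medium was 0.22 on the brightest probe and 0.57 on the second.

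**Figure D4:**
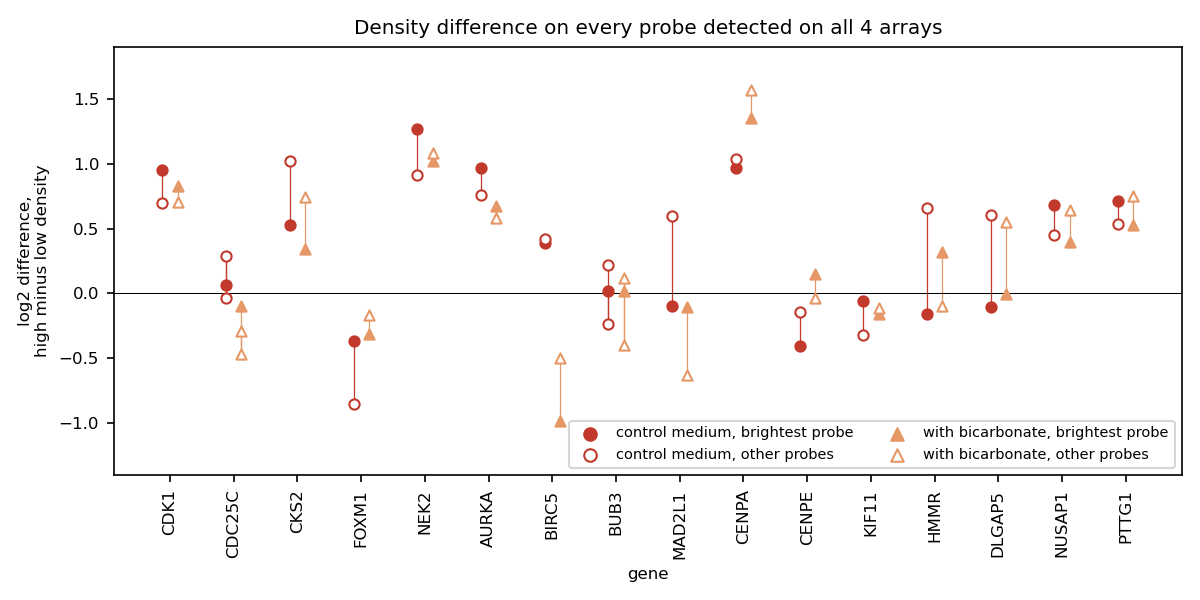
Density difference (log2 high minus low density) on each of 34 probes of the 16 genes with 2 or more probes detected on all arrays, in control medium (circles) and with bicarbonate (triangles). Filled points are the brightest probe of a gene. CDK1, NEK2, AURKA, CENPA, NUSAP1 and PTTG1 lie above 0 on both probes, and probes of MAD2L1, HMMR and DLGAP5 lie apart in control medium.

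In control medium, other genes of mitosis, from textbook lists, had median density differences near or below that of all genes, except the regulators of M phase entry. The shares of all genes past 1.5-fold, for each list that follows, are 12% higher and 11.9% lower in control medium and 11.5% and 12% with bicarbonate. Of 29 measured genes of the centromere and kinetochore outside the 47, 2 were higher by 1.5-fold or more in the crowded control culture and 7 lower, with a median of -0.25. CENPU, an inner kinetochore subunit, stood at 7.44, 7.79, 9.30 and 9.60, or 3.63-fold lower at high density in control medium. ZWINT (-0.83) and CENPB (-0.72) followed it. With bicarbonate the counts were 2 higher and 7 lower of 28 (median -0.30).

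Among 25 other mitotic spindle genes 1 was higher and 1 lower in control medium (median 0.05), and among 26 with bicarbonate 6 were higher and 1 lower (median 0.08). CKAP2L, a spindle protein, stood at 8.97, 8.97, 7.95 and 8.10 (density difference 1.02 in control medium), and SPAG5 (astrin) differed by -0.77 and CKAP2 by 0.49. Among 16 condensin, cohesin and separation genes 0 were higher and 2 lower in control medium (median -0.13), led by STAG1 (-1.13), NCAPH2 (-0.76) and STAG2 (0.57). Among 11 subunits of the anaphase-promoting complex 2 were higher and 2 lower in control medium (median -0.10), among them ANAPC15 (-0.84), ANAPC16 (0.80) and CDC23 (0.71). With bicarbonate 3 of the 16 condensin, cohesin and separation genes were higher and 2 lower (median -0.05). Of the 11 subunits 0 were higher and 2 lower with bicarbonate (median -0.15).

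The other regulators of M phase entry were split in control medium, with 3 of 13 higher, 2 lower and 0.22 as the median. With bicarbonate 2 of 13 were higher and 1 lower, and the median was 0.04. PBK, a mitotic kinase, stood at 8.97, 8.45, 7.62 and 7.45, or 2.55-fold higher at high density in control medium and 2.00-fold with bicarbonate. BORA, the cofactor with which Aurora A activates PLK1, stood at 10.02, 9.02, 8.83 and 9.22, high in the high-density control alone and 2.28-fold above the low-density control. CDC25A, the phosphatase of the G1 to S step, stood at 9.48, 9.51, 10.66 and 10.54, or 2.25-fold lower at high density in control medium. WEE1 and PKMYT1, the kinases that hold CDK1 inactive, differed by 0.98 and -0.66 in control medium, and by 0.41 and -0.38 with bicarbonate.

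**Figure D5:**
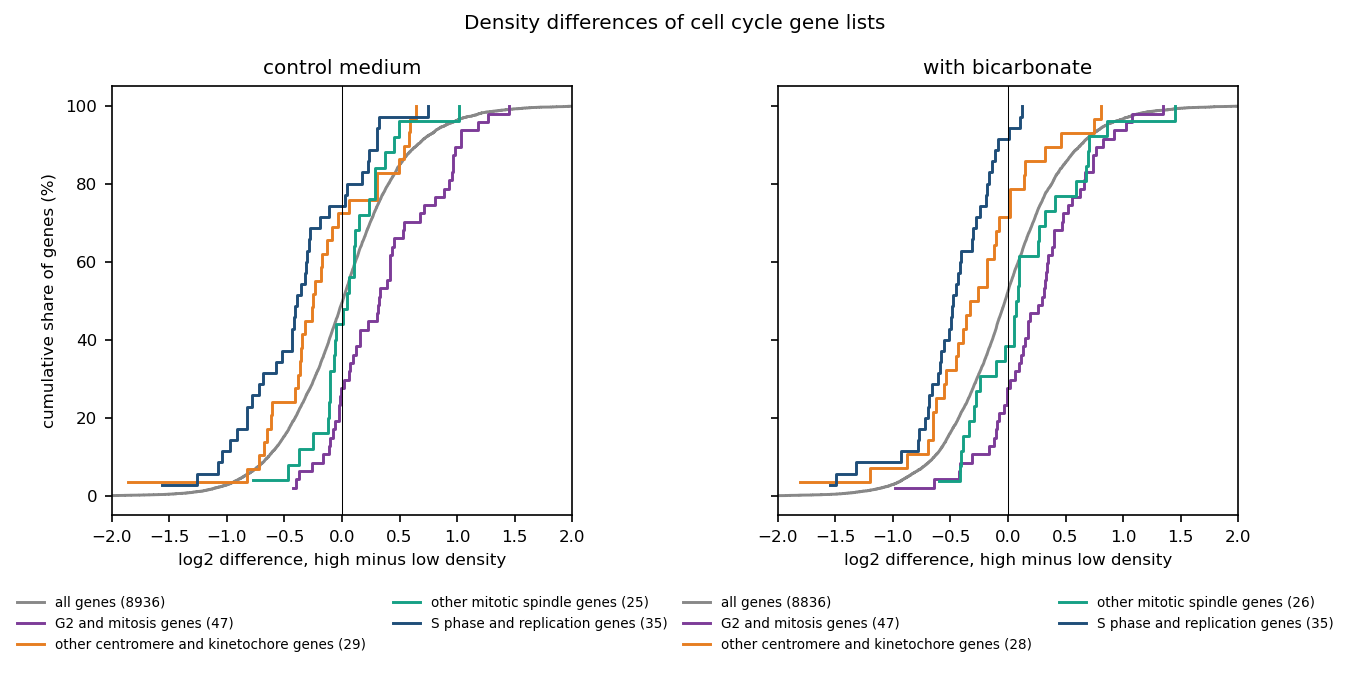
Cumulative share of genes (vertical, percent) by density difference (horizontal, log2 high minus low density) for the 47 G2 and mitosis genes, other lists and all genes measured, in control medium (left) and with bicarbonate (right). The curve of the 47 genes lies to the right of that of all genes (medians of 0.32 and 0.01 at left), and that of S phase and replication genes to the left (median -0.39).

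Genes of S phase had medians below that of all genes. Of 35 measured genes of S phase and replication 1 was at least 1.5-fold higher and 11 lower at high density in control medium (12% and 11.9% of all genes), with a median of -0.39. With bicarbonate 0 of 35 were higher and 12 lower (11.5% and 12% of all genes), with a median of -0.48. The difference between this list and the 47 genes was not tested, since each rests on the same 4 arrays. GINS3 of the replicative helicase stood at 7.67, 7.85, 9.24 and 9.40, MCM5 differed by -1.26 in control medium, and CCNE1 (cyclin E1) by -1.08.

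CDKN1A encodes p21, the inhibitor through which p53 leads to repression of mitotic genes by DREAM. It stood at 12.30, 9.63, 8.02 and 7.72, highest in the high-density control. Of 10 measured subunits of DREAM and MMB, 1 was higher and 2 lower at high density in control medium, with a median of -0.08. RBL2, the pocket protein p130 of DREAM, stood at 8.37, 8.02, 7.57 and 7.20 (density difference 0.79), and TFDP1 (2.15-fold) and E2F5 (2.00-fold) were lower. With bicarbonate 1 of 11 measured subunits was higher at high density and 2 were lower (11.5% and 12% of all genes), with a median of -0.37.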

How the data were processed

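Total RNA isolated with a column kit was converted to labelled cRNA for Illumina expression arrays, per the labels' protocols. Groups came from the sample titles. The deposited intensity per probe is not normalized, per the file headers, and the deposited detection p-value sets each probe against the negative controls of its array. The authors also deposited log2 values with nearly equal quantiles, used as an alternative, and how these were made is not given in the sources used here. Background correction and quantile normalization of the intensities used neqc (offset 16) of limma 3.58.1 in R 4.3.3, so a change common to all genes is removed. Of 47293 probes 30098 had 1 gene symbol in the platform annotation, 8 had several and 17187 none. A gene was taken as its brightest probe among those with a detection p-value under 0.01 on at least 1 array, and a comparison used the genes whose probe passed on both of its arrays. Summaries used Python 3.11.15 with pandas 2.3.3, and the procedure was tested on simulated data. The number of arrays limits the precision.

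The genes, other lists and motifs were chosen with earlier results of these data known. Levels on all arrays were given for genes at least 1.5-fold apart in a comparison and for the 2 of each role with the largest mean absolute density difference. CKS2, FOXM1 and CENPE fall outside this rule, and their levels were added after the values were seen. Up to 3 genes of each other list, those with the largest density difference in control medium, were named, with CDKN1A, and the remaining genes named from those lists were chosen after their values were seen. The alternatives were no background correction, equal medians, the authors' values, a detection p under 0.05, a mean log2 of at least 8, detection on all 4 arrays, other probe choices and a 2-fold limit.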

Additional observations from a re-analysis of the deposited data

Results flagged for a closer look

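For 7 of the 47 genes the bicarbonate difference pointed one way at high density and the other way at low density, with at least 1.5-fold between the 2 differences. Each rests on 1 array per condition, so the difference was not tested. In the difference of differences 12.8% of the 47 genes lay that far below 0, against 10.7% of all genes. That far above 0 lay 2.13%, against 10.4%. The share of all genes that also changed direction was not counted. High minus low density gave -1.37 for BIRC5, -0.92 for ECT2, -0.84 for CDCA3, -0.74 for CCNB1, -0.72 for PLK1 and -0.71 for BUB1B. AURKB went the other way, at 0.64. Of the 7 genes BIRC5 alone had a second detected probe, which gave -0.85 at high density and 0.07 at low density. Over the 16 genes with 2 probes on all arrays, the difference of differences had a Pearson correlation between probes of 0.31. The Spearman correlation was 0.18, with the same sign for 8 of 16. The SD per probe, estimated over all 1737 genes with paired probes, was 0.46, and the gap between paired probes spreads wider.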

How the results depend on the processing

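No paired analysis was possible because each group has 1 array and the labels give no replicate numbers, and no replicate could be left out. Of 37 gene differences past 1.5-fold, counted over the 4 comparisons and the difference between both bicarbonate differences, 32 stayed past it in the same direction with no background correction, 32 with equal medians, 36 with the authors' log2 values, 36 with the mean of all detected probes and all 37 with a detection p under 0.05. Of the 13 with a second probe, 9 stayed past it on that probe, and none changed sign under any alternative. The 7 genes higher in both media became 2 (NEK2 and KIF2C) at 2-fold, against 1.37% of all genes. Under alternatives that kept the 1.5-fold limit and all or all but 1 of the 47 genes, they became 6 to 9. The share of all genes was then 2.68% to 5.46%. Of 16 genes with a second probe, 4 passed on it, against 3.15% of all genes. Those were CDK1, NEK2 and CENPA of the 7, and CKS2, which is not among them. AURKA fell just short with bicarbonate, and INCENP, NUF2 and KIF2C had no second detected probe. With equal medians the median of all genes moved to -0.06 and -0.11 for the density difference in control medium and with bicarbonate and to -0.14 and -0.11 for the bicarbonate difference at high and low density. In that setting the 47 genes had a median of 0.10 for the density difference with bicarbonate (7 genes higher, against 9.91% of all genes), of -0.29 for the bicarbonate difference at high density (6 genes lower, against 8.76%), of -0.11 for that at low density, and of -0.21 for the difference between both bicarbonate differences (0 genes higher, against 11.6%). With no background correction 1 gene was lower with bicarbonate at high density (1.44% of all genes) and 1 was lower at high density with bicarbonate (6.30%). With the mean of all detected probes, 1 gene was lower at high density in control medium (12.4% of all genes). In that setting 1 was lower with bicarbonate at low density (1.56%), and 2 were higher in the difference of differences (10.4%). On the second-brightest probes, which exist for fewer genes, the median density difference in control medium was 0.57. Of 17 genes measured there 8 were higher and 1 lower, against 10.2% and 16.3% of all genes. Of 16 measured with bicarbonate 6 were higher and 1 lower at high density, against 10.03% and 13.62%. The bicarbonate medians on those probes were -0.20 at high and -0.14 at low density. At low density 1 of 16 genes was higher and 1 lower, against 3.27% and 5.57% of all genes. At 2-fold in place of 1.5-fold, 5 genes were higher at high density in control medium, against 3.77% of all genes. With bicarbonate 3 were higher and 0 lower, against 3.43% and 2.93%. At that limit bicarbonate at high density gave 0 genes lower (0.60% of all genes). The difference of differences gave 0 above and 1 below (1.93% and 2.43%). Signal over background sets the limit for dim probes, and the dimmest of the 47 genes had an intensity of 299.4 before normalization on the low-density bicarbonate array, whose median was 153.5.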
